A study of Mus musculus with 8 samples.

Results

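The genes described here are 10 interferon-stimulated antiviral effectors of the mouse left ventricle, namely Ifit1, Ifit2, Ifit3, Isg15, Usp18, Rsad2, Mx1, Oasl2, Oas2 and Bst2. They were taken by name, as the rows of the array table whose platform gene symbol is one of these, with the brightest probe set where a gene had several. Of the 10 genes, 9 had a probe set of their own among the 19933 genes measured in the series. The probe set of Isg15 also carries the symbol Gm9706, a pseudogene, so Isg15 has no value of its own and its shared probe set is given apart.

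Total RNA of the left ventricle of C57/Bl6 mice was measured on Affymetrix Mouse Gene 1.0 ST arrays, 1 array per sample. The PlGF mice (2 arrays) carried a TET-OFF transgene for PlGF, placental growth factor, switched on by the activator tTA under the αMHC promoter, which works in heart muscle cells. The mice labelled PlGF/RGS4 (3 arrays) were of a line made to express PlGF together with RGS4, a protein that shortens signals from G proteins, by the same driver, and the control mice (3 arrays) were littermates that had inherited only 1 transgene. In all of them doxycycline in the diet kept the transgenes off until 5 weeks of age, followed by 6 weeks on normal chow, so that the mice were 11 weeks old. The labels call the arrays of a group biological replicates and give no litter, sex or scan date, so that a p-value measures the spread between these samples. In these samples fewer cells of a type and less RNA per cell cannot be told apart.

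Interferons are secreted proteins that tell cells of a virus. Type I interferons (alpha and beta) act through the receptor Ifnar1/Ifnar2, the kinases Jak1 and Tyk2 and a complex that holds Irf9 and binds the interferon-stimulated response element (ISRE). Interferon gamma acts through its own receptor and the kinases Jak1 and Jak2, and its targets often carry the gamma-activated site (GAS). The 10 genes are among the best-known targets of type I interferons, some of them respond to interferon gamma too, and their products block viruses at entry, translation, replication or release, or trim the signal itself.

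The labels were checked first. Pgf, the gene of the transgene product, read 4136 and 917 intensity units in the PlGF arrays, 300.0, 229 and 211 in those labelled PlGF/RGS4 and 211, 349 and 387 in control. Rgs4 read 235 and 195 in the PlGF arrays, 234, 187 and 229 in those labelled PlGF/RGS4 and 209.5, 277 and 281.5 in control, so neither transgene was seen above control in the arrays labelled PlGF/RGS4. Neither gene bears out that label. Rgs4 stood above the highest control in no array, and whether the probe sets detect the transgenes of that line was not tested. The group is called by its label throughout. The heart muscle genes Myh6 (12023 to 13622 over the 8 arrays) and Tnnt2 (14169 to 15582) were high, as the ventricle label implies. Of the 3 atrial genes, Myl7 (55.3 to 84.4) and Sln (37.4 to 53.6) were low. The third, Myl4, read 286.3 to 434.6, far below the heart muscle genes but above the median intensity of the arrays. The median intensity of the arrays ran from 111.1 to 115.15. PlGF replicate 1 stood apart over all genes, with a mean correlation of 0.974 with the arrays of the other groups, against 0.991 to 0.993 for the other 7 arrays.

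The promoters are shown because members that move together can be read against the letters they share. RefSeq (GRCm38.p6) gave a window of 250 bases before to 50 bases after the start site for 7 of the 10 genes, Ifit1, Ifit2, Ifit3, Isg15, Rsad2, Oasl2 and Bst2, with a pair of windows for Ifit2. The ISRE was searched as GAAANNGAAA on both strands, with overlapping matches counted, and was found for 5 of the 7 genes (71.4%), against 34 of 88 other interferon pathway genes with a window (38.6%) and 1079 of all 27025 genes (3.99%). The stretches that hold the matches follow, 5′ to 3′ on the strand of the gene, with the ISRE letters in capitals and 30 bases on each side. They are Ifit3 at chr19:34583343-34583446 on the plus strand, Ifit1 at chr19:34640755-34640843 on the plus strand, Isg15 at chr4:156200845-156200926 on the minus strand, Rsad2 at chr12:26456533-26456602 on the minus strand and Bst2 at chr8:71537557-71537632 on the minus strand.
Ifit3: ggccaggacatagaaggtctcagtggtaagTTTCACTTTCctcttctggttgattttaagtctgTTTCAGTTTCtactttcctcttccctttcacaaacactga
Ifit1: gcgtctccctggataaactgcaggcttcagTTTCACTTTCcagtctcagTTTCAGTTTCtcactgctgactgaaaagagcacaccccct
Isg15: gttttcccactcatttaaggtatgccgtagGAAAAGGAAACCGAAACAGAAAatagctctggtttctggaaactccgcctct
Rsad2: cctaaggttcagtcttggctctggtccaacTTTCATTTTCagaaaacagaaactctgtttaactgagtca
Bst2: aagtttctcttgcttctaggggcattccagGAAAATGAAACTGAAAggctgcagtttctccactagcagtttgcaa

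Ifit1 and Ifit3, which lie on chromosome 19 with Ifit2, held the same pair of 10-letter matches in the same order and on the strand opposite to the gene. The matches of Ifit3 lay at −156 to −147 and −122 to −113 from the start site, and those of Ifit1 at −104 to −95 and −85 to −76. Isg15 held 3 overlapping matches between −78 and −57, Bst2 held 2 overlapping matches between −130 and −115, and Rsad2 held 1 at −120 to −111. Neither window of Ifit2 and not the window of Oasl2 held these letters, though both genes passed the threshold in PlGF versus control given below. Of the genes that hold them, Bst2 did not pass and Isg15 has no value of its own. The GAS, searched as TTCNNNGAA on both strands, was found in the windows of Bst2, at −136 to −128 where it overlaps the first ISRE match, and of Ifit2, at −241 to −233. These are 2 of the 7 genes (28.6%), against 23 of 88 other pathway genes (26.1%) and 2582 of all 27025 genes (9.55%). A match describes the letters of the window and is not a measured binding site. The 10 genes were listed as known interferon targets, so their share of ISRE matches is no test of these arrays.

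**Figure D1:**
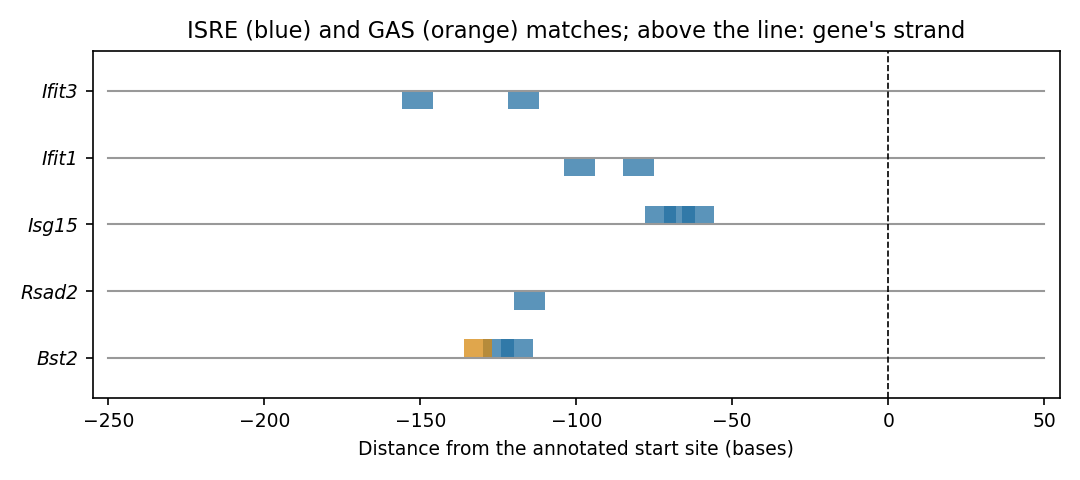
Matches of the ISRE letters (blue) and the GAS letters (orange) in the promoter windows of the 5 genes that hold an ISRE match, by distance from the annotated start site in bases. Blocks above a gene's line are on its own strand and blocks below are on the other strand, and all matches drawn lie between −156 and −57.

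All 9 genes with a probe set of their own read higher in both PlGF arrays than in each of the other 6 arrays. On the scale of log2 of the intensity plus 1, which understates the change of dim genes, they stood above control by 0.51 (Oas2) to 2.46 (Ifit3), with a median of 1.51, against −0.03 over all genes. With limma fitted to all 8 arrays and p-values adjusted over 19933 genes, 5 of the 9 passed a threshold of 0.05 and rose in PlGF versus control (Ifit3, Ifit2, Ifit1, Oasl2 and Rsad2), 0 fell and 4 did not pass, while 1.79% of all genes tested passed in that direction. Every array of PlGF lay above every control array for 9 of the 9 genes, against 14.3% of all genes. At an unadjusted p under 0.05 there were 9 of the 9 genes, against 10.9% of all genes. For each of the 9 genes the two-sided exact permutation test over samples gave p = 0.1, the smallest it can give with 2 arrays against 3.

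**Figure D2:**
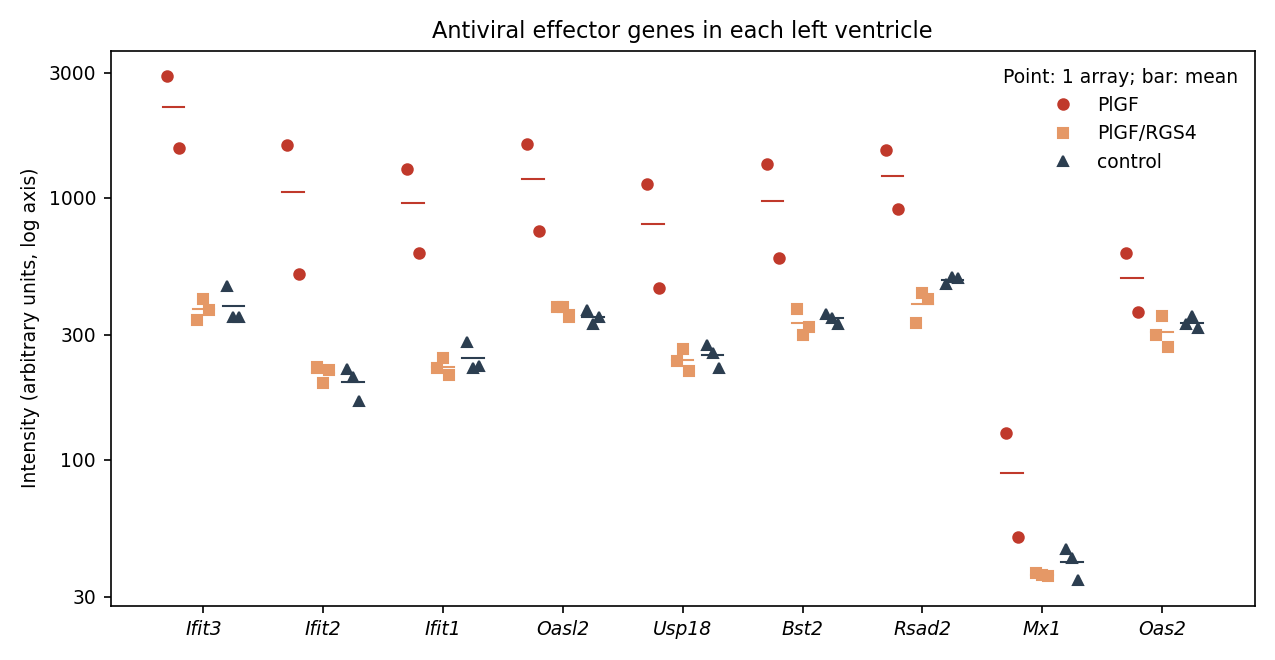
Intensity (arbitrary units, log axis) of the 9 genes with a probe set of their own over the 8 arrays, split by group. Points stand for single arrays and bars for group means; for all 9 genes both PlGF points lie above the other 6, and PlGF replicate 1 is the higher of the pair.

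The IFIT proteins bind viral RNA that lacks the marks of the cell's own messages and keep it from being translated. Ifit3, which works in complexes with its relatives, read 2911 and 1541 in PlGF, 342, 410.5 and 373 in arrays labelled PlGF/RGS4 and 461, 349.7 and 349 in control. The lower PlGF array was 3.34 times the highest of the other 6 arrays, the widest gap among the 9 genes, and the groups PlGF/RGS4 and control overlapped. Ifit3 rose 5.51-fold in PlGF versus control, a log2 fold change of 2.46 ± 0.25 (SE; limma adjusted p = 0.0131), and ranked at place 42 of 19933 genes by that value. Ifit3b is a near-identical copy of Ifit3, so that a part of either signal can come from the other. It read 187.5 and 104 in PlGF, 34.1, 29.8 and 22 in arrays labelled PlGF/RGS4 and 32.3, 29.1 and 29 in control, and rose by 2.17 ± 0.26 (limma adjusted p = 0.0178).

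Ifit2, another RNA-binding member of the family, read 1593 and 509 in PlGF, 225, 197 and 219 in arrays labelled PlGF/RGS4 and 221.5, 206 and 167 in control. Both PlGF arrays lay above the rest, and they differed from each other by 3.13 times, the widest such ratio of the 9 genes. Ifit2 rose 4.56-fold in PlGF versus control (2.19 ± 0.41, limma adjusted p = 0.0425). Ifit1, which recognises the faulty cap or the triphosphate end of viral RNA, read 1286 and 612.5 in PlGF, 224, 243.5 and 211 in arrays labelled PlGF/RGS4 and 282, 224.5 and 227 in control. The lower PlGF array of Ifit1 was 2.18 times the highest other array. Ifit1 rose 3.64-fold (1.87 ± 0.28, limma adjusted p = 0.0247).

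Not all relatives passed. Ifit1bl2, a relative of Ifit1, read 42.3 and 47.4 in PlGF, 39.8 to 51.7 in arrays labelled PlGF/RGS4 and 45.2 to 46.1 in control. Its groups overlapped (−0.03 ± 0.11, limma adjusted p = 0.896). Of the 3 measured genes listed as IFIT and MX relatives (of 4 listed), 1 rose, 0 fell and 2 did not pass.

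The OAS enzymes sense double-stranded RNA and make a short oligoadenylate that switches on RNase L, which cuts RNA. Oasl2, an OAS-like protein that carries ubiquitin-like domains, read 1605 and 749 in PlGF, 384, 384 and 350.4 in arrays labelled PlGF/RGS4 and 374, 330.1 and 349.6 in control. The lower PlGF array was 1.95 times the highest of the other arrays, which overlapped. Oasl2 rose 3.12-fold in PlGF versus control (1.64 ± 0.27, limma adjusted p = 0.0337).

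Oas2, a member that makes the oligoadenylate, read 615 and 367 in PlGF, 299, 354.5 and 269 in arrays labelled PlGF/RGS4 and 331, 352 and 318 in control. PlGF replicate 2 was only 1.04 times the highest other array, so that the difference was carried by PlGF replicate 1. Oas2 had the smallest difference of the 9 genes, 1.42-fold (0.51 ± 0.21, limma adjusted p = 0.202).

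Of the 9 measured genes of the list OAS and RNase L (of 11 listed), 0 rose, 0 fell and 9 did not pass, with a median log2 fold change of 0.45 (3 higher at an unadjusted p under 0.05 by limma). Oasl1, which in the mouse holds back translation of Irf7, read 337 and 232.5 in PlGF, 160.4, 183 and 175 in arrays labelled PlGF/RGS4 and 179, 170.5 and 174 in control (0.68 ± 0.14, limma adjusted p = 0.0567). Oas3, the largest of the enzymes, read 179 and 77.4 in PlGF against 51.2 to 62.1 in control (1.07 ± 0.31, limma adjusted p = 0.106). For Oas1b the difference was 0.86 ± 0.30 (limma adjusted p = 0.156), and for Oas1c it was 0.45 ± 0.22 (limma adjusted p = 0.282).

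Rsad2 encodes viperin, an enzyme that makes a nucleotide which ends the growing chain of viral RNA. It read 1522 and 903 in PlGF, 331.5, 433 and 412 in arrays labelled PlGF/RGS4 and 469, 498 and 491 in control. The 3 groups did not overlap, with PlGF highest and the arrays labelled PlGF/RGS4 lowest. Rsad2 rose 2.41-fold in PlGF versus control (1.27 ± 0.21, limma adjusted p = 0.0337).

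Bst2 encodes tetherin, which holds budding virus at the cell surface. It read 1348.5 and 586 in PlGF, 375, 298 and 322 in arrays labelled PlGF/RGS4 and 359.6, 349 and 329.9 in control. Both PlGF arrays lay above the rest, and the other groups overlapped. The difference of Bst2 was 2.57-fold (1.36 ± 0.30, limma adjusted p = 0.0632).

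Mx1 encodes a dynamin-like GTPase that traps the nucleoproteins of influenza and related viruses, and RefSeq lists it as a transcribed pseudogene in the C57BL/6J reference, in which the gene is damaged. It read 126.5 and 50.9 in PlGF, 37, 36.4 and 35.9 in arrays labelled PlGF/RGS4 and 45.7, 42.2 and 34.6 in control. PlGF replicate 2 was 1.11 times the highest other array, so here too PlGF replicate 1 carried most of the difference, which was 1.96-fold (0.97 ± 0.32, limma adjusted p = 0.141). Mx2, its relative, read 89.9 and 43 in PlGF, 39.1, 45.7 and 43 in arrays labelled PlGF/RGS4 and 35, 42.7 and 44.8 in control. Only PlGF replicate 1 lay above the other arrays of Mx2 (0.60 ± 0.27, limma adjusted p = 0.241).

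Isg15 is a ubiquitin-like protein that is joined to other proteins after interferon exposure, and Usp18 takes it off again and also damps the type I interferon receptor. Usp18 read 1130.4 and 451 in PlGF, 238, 265 and 219 in arrays labelled PlGF/RGS4 and 275, 256 and 223 in control. The lower PlGF array was 1.64 times the highest other array, and the difference was 2.85-fold (1.51 ± 0.33, limma adjusted p = 0.0626).

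The probe set shared by Isg15 and Gm9706 read 96.4 and 42.4 in PlGF, 38.5, 37.2 and 38.5 in arrays labelled PlGF/RGS4 and 38.5, 34.2 and 38.5 in control. Both PlGF arrays were again the highest, PlGF replicate 2 by a small margin, and the difference was 0.77 ± 0.28 on the log2 scale (limma adjusted p = 0.166). How much of this signal is Isg15 was not tested.

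The enzymes that attach Isg15 were measured apart from it. Of the 4 measured genes of that list (of 5 listed), 2 rose, 0 fell and 2 did not pass in PlGF versus control, with a median of 1.11. Herc6, the mouse ligase for Isg15, read 1362 and 546 in PlGF, 216, 233 and 205 in arrays labelled PlGF/RGS4 and 241, 224 and 225 in control. It rose by 1.90 ± 0.32 (limma adjusted p = 0.0356). Uba7, the activating enzyme, rose by 0.92 ± 0.18 (limma adjusted p = 0.0474). Ube2l6, the conjugating enzyme, had a difference of 1.30 ± 0.32 (limma adjusted p = 0.0781), and Trim25, which also serves the sensor Rig-I, one of 0.22 ± 0.13 (limma adjusted p = 0.331).

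The arrays labelled PlGF/RGS4 stood near control in these genes. Of the 9 genes, 0 rose and 0 fell in PlGF/RGS4 versus control by limma (0 at an unadjusted p under 0.05, where 2.74% of all genes were higher), while 0.0151% of all genes tested, 3 in number, were higher. The log2 fold changes ran from −0.32 (Rsad2) to 0.12 (Ifit2), with SEs of 0.19 to 0.36 and a median of −0.07, against 0.00 over all genes. The limma adjusted p was 0.995 for Rsad2 and 0.998 for the other 8 genes. Rsad2 was the 1 gene whose arrays labelled PlGF/RGS4 all lay below the controls (−0.32 ± 0.19, two-sided exact permutation p = 0.1), which also held for 5.85% of all genes.

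In PlGF versus PlGF/RGS4, the test of the difference between the transgenic groups, 4 of the 9 genes passed and were higher in PlGF (Ifit3, Ifit1, Rsad2 and Oasl2), 0 were lower and 5 did not pass, against 1.1% of all genes higher. At an unadjusted p under 0.05 there were 9 of the 9 genes, against 8.95% of all genes, and in all 9 every PlGF array lay above every array labelled PlGF/RGS4, which held for 12.6% of all genes. The difference was 2.50 ± 0.25 for Ifit3 (limma adjusted p = 0.0128), 1.97 ± 0.28 for Ifit1 (0.0266), 1.59 ± 0.21 for Rsad2 (0.0235) and 1.55 ± 0.27 for Oasl2 (0.0482). Ifit2 passed against control only, with 2.07 ± 0.41 here (limma adjusted p = 0.0658). The values of the rest were 1.57 ± 0.33 for Usp18 (limma adjusted p = 0.0803), 1.43 ± 0.30 for Bst2 (0.0802), 1.12 ± 0.32 for Mx1 (0.148) and 0.64 ± 0.21 for Oas2 (0.175). This comparison and PlGF versus control share both PlGF arrays.

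**Figure D3:**
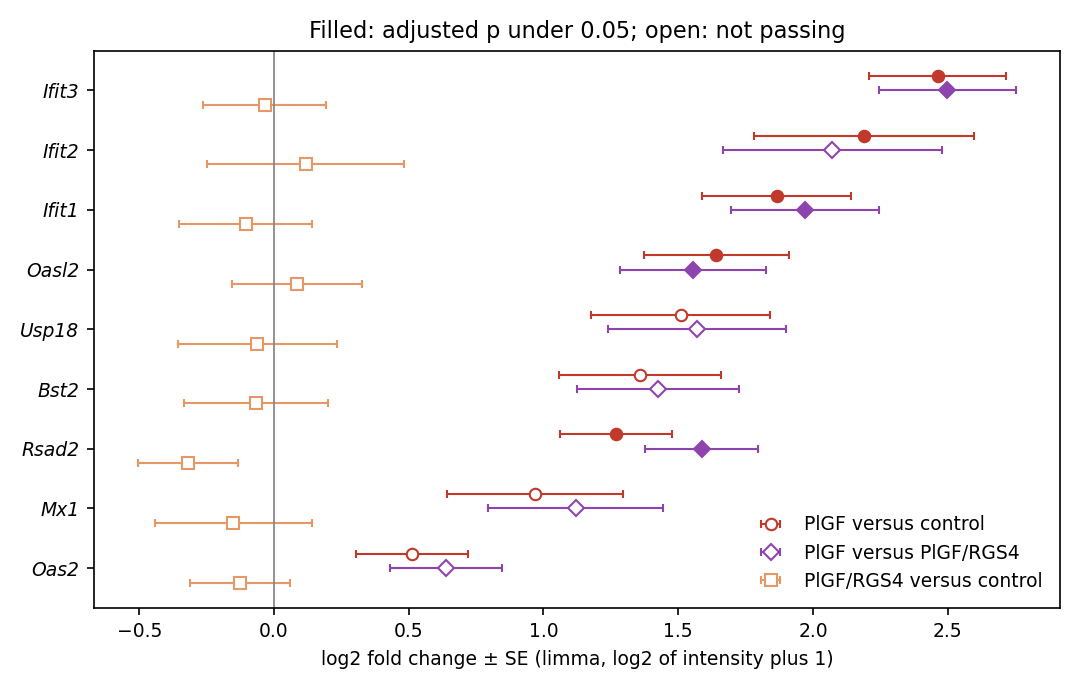
Fitted log2 fold change ± SE (log2 of intensity plus 1, limma) of the 9 genes in the 3 comparisons. Filled symbols have an adjusted p under 0.05: Ifit3, Ifit2, Ifit1, Oasl2 and Rsad2 in PlGF versus control, and Ifit3, Ifit1, Oasl2 and Rsad2 in PlGF versus PlGF/RGS4, while PlGF/RGS4 versus control lies between −0.32 and 0.12.

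The calls rest on few arrays. The direction held under all alternatives run, but leaving out an array could not turn it, since both PlGF arrays lay above all others. With the spread of each gene alone (one-way ANOVA), with the arrays of a pair of groups only and with the methods' t-test, 0 of the 9 genes passed after adjustment in PlGF versus control, against 7, 7 and 5 genes at an unadjusted p under 0.05, and of all 19933 genes 5, 0 and 1 passed as higher. PlGF replicate 1 was 1.68 (Oas2) to 3.13 (Ifit2) times PlGF replicate 2, and the median difference of the 9 genes from the control mean was 2.17 in PlGF replicate 1 and 0.89 in PlGF replicate 2. Over the arrays labelled PlGF/RGS4 the same median was −0.12, 0.00 and −0.17, and in control it was 0.13, 0.03 and −0.10. Left out in turn, PlGF replicate 1 gave 7 called genes of 9 and PlGF replicate 2 gave 9, with the lone PlGF array assumed to vary like the other groups, and these settings called 295 and 2820 of all 19933 genes higher. Without control replicate 1, PlGF/RGS4 replicate 1 or PlGF/RGS4 replicate 2 there was 1 call each, Ifit3, and without control replicate 2, control replicate 3 or PlGF/RGS4 replicate 3 there were 0 calls by limma (8, 7 and 8 genes at an unadjusted p under 0.05). In these 6 settings 16 to 48 of all 19933 genes were called higher. Without PlGF replicate 1, Ifit3 stood 2.00 above control (limma adjusted p = 0.00606), Ifit2 1.37 (0.0154), Ifit1 1.33 (0.0115), Oasl2 1.09 (0.0042), Rsad2 0.89 (0.0453), Usp18 0.85 (0.0484) and Bst2 0.76 (0.0480). Mx1 then stood at 0.32 (limma adjusted p = 0.383) and Oas2 at 0.14 (limma adjusted p = 0.838), the 2 genes that did not pass.

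Xist, the RNA that silences one X chromosome in female cells, was low in PlGF replicate 1 (26.9), PlGF/RGS4 replicate 2 (36.1) and control replicate 2 (50.8) and read 2581 to 2959 in the other 5 arrays. The median difference of the antiviral genes from the control mean was 2.17, 0.00 and 0.03 in these 3 arrays, and the part of sex in their level was not tested.

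Markers of leukocytes moved with the antiviral genes. Of 15 measured leukocyte markers (of 17 listed), 8 rose, 0 fell and 7 did not pass in PlGF versus control, with a median of 1.20. Of all genes 1.79% were higher. Nkg7, a granule protein gene of cytotoxic lymphocytes, read 2059 and 618 in PlGF, 49.8, 40.3 and 49.8 in arrays labelled PlGF/RGS4 and 50.9, 42.2 and 41.4 in control (4.63 ± 0.43, limma adjusted p = 0.00761). Ptprc, the common leukocyte antigen, read 1051 and 505.5 in PlGF, 128, 164 and 133 in arrays labelled PlGF/RGS4 and 147.5, 157 and 162 in control (2.22 ± 0.27, limma adjusted p = 0.0178). Ccr2, the chemokine receptor of recruited monocytes, rose by 2.51 ± 0.24 (limma adjusted p = 0.00799).

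The summed intensity of the leukocyte list was 12862 and 6759 in PlGF, 3292 to 4337 in arrays labelled PlGF/RGS4 and 3656 to 3915 in control. The sums of the antiviral genes were 12137 and 5769 in PlGF, 2411 to 2622 in arrays labelled PlGF/RGS4 and 2489.5 to 2818 in control. Both lists were highest in the PlGF arrays. PlGF/RGS4 replicate 2 had the leukocyte sum of 4337, above every control, while its antiviral sum of 2622 lay within the control range. A large part of that leukocyte sum was 1 gene, Lyz2, which read 2287 there and 1903 to 2014 in control. The median difference of the leukocyte markers from the control mean was 0.08 in that array. Cd79a and S100a8 are named here outside the rule of smallest p. The B cell gene Cd79a read 28.1 and 29.7 in PlGF, 25.3 to 28.1 in arrays labelled PlGF/RGS4 and 28.1 to 30.2 in control. It was dim, at percentile 15.4 of the mean levels of all genes, so an unchanged gene and an undetected one cannot be told apart. The neutrophil gene S100a8 read 34 and 30.9 in PlGF, 33.3 to 64.6 in arrays labelled PlGF/RGS4 and 33.5 to 37.6 in control. The part of the leukocytes in the level of the antiviral genes was not tested.

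Of 5 measured markers of plasmacytoid dendritic cells (of 6 listed), which are a rich source of type I interferon, 0 rose and 0 fell (at an unadjusted p under 0.05 limma had 1 higher and 1 lower). Siglech, their surface lectin, read 48.9 and 54.2 in PlGF, 53.8, 53.4 and 54.3 in arrays labelled PlGF/RGS4 and 52.4, 53.8 and 62.6 in control (−0.12 ± 0.08, limma adjusted p = 0.424). Ccr9 had a difference of 0.25 ± 0.08 (limma adjusted p = 0.124), and Cox6a2, which heart muscle also expresses, one of −0.24 ± 0.10 (limma adjusted p = 0.218). The heart muscle markers did not pass in either direction (0 of 9 measured, 2 lower at an unadjusted p under 0.05 by limma), with a median of −0.06 and a sum of 102716 and 117582 in PlGF, 116804 to 117085 in arrays labelled PlGF/RGS4 and 117426 to 119292 in control. The 2 lower genes were Ryr2 (−0.73 ± 0.21, limma adjusted p = 0.107) and Pln (−0.27 ± 0.11, limma adjusted p = 0.184). For both, each PlGF array lay below every control, which held for 3894 of all 19933 genes. At an unadjusted limma p under 0.05, 2338 of all genes were lower. Ryr2 also lay below every control in the arrays labelled PlGF/RGS4 (6632 to 7289, against 7694 to 8408), as did 5.85% of all genes. Of 8 endothelial markers 1 rose, Cdh5, the cadherin of vessel junctions (0.30 ± 0.05, limma adjusted p = 0.0374), 0 fell and 7 did not pass (4 higher and 1 lower with p under 0.05 before adjustment, by limma). Among the 7 were Kdr (0.57 ± 0.12, limma adjusted p = 0.0545), Emcn (0.44 ± 0.11, limma adjusted p = 0.0795) and, named after its values were seen, Vwf, which had the largest difference of the list and pointed the other way (−0.74 ± 0.27). Of 5 fibroblast markers 0 passed (2 higher at an unadjusted p under 0.05 by limma), with a median of 0.12, and of 3 atrial markers 0 passed (1 lower at an unadjusted p under 0.05 by limma).

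The antiviral genes were set beside the other genes of the pathway, 113 in 9 lists, of which 101 were measured. In PlGF versus control 32 of the 101 rose, 0 fell and 69 did not pass, with a median of 0.69. Of all genes 1.79% were higher in that comparison, the share to set beside the count of each list. In PlGF versus PlGF/RGS4 23 were higher and 0 lower, against 1.1% of all genes higher. In PlGF/RGS4 versus control 0 passed in either direction by limma (1 and 2 genes at an unadjusted p under 0.05). Leaving out PlGF replicate 1 gave 35 in place of 32, and leaving out PlGF replicate 2 gave 71. The count was 2 without each control array in turn, 4 without PlGF/RGS4 replicate 1 and 3 without PlGF/RGS4 replicate 2 or 3. As given above, the calls over all genes also fell without a control or PlGF/RGS4 array, and they rose without PlGF replicate 2.

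None of the genes of the interferon proteins themselves passed in any of the 3 comparisons. Of 15 measured interferon genes (of 19 listed), 0 rose and 0 fell by limma (at an unadjusted p under 0.05 there was 1 higher and 1 lower), with a median of −0.09. Ifng, which encodes interferon gamma, had the largest difference of them and read 248 and 92 in PlGF, 49.6, 52.5 and 45.8 in arrays labelled PlGF/RGS4 and 48.6, 43.6 and 45.9 in control. Both PlGF arrays lay above the rest, and the difference of 1.69 ± 0.34 did not pass (limma adjusted p = 0.0526).

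Ifnb1, which encodes interferon beta and was chosen here after its values were seen, read 30.4 and 29.1 in PlGF, 30.4 in each array labelled PlGF/RGS4 and 34.3, 30.4 and 29.2 in control. Its groups overlapped (−0.07 ± 0.07, limma adjusted p = 0.601). Ifnb1 was dim, at percentile 17.0 of the mean levels of all genes. Values this low cannot tell an unchanged gene from an undetected one. The interferon alpha genes are near-identical copies, so that their probe sets can share signal. Ifna2 had a difference of −0.33 ± 0.15 (limma adjusted p = 0.237), Ifna11 one of −0.16 ± 0.08 (limma adjusted p = 0.304), and Ifnl2, an interferon lambda gene, one of −0.36 ± 0.13 (limma adjusted p = 0.163).

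Of the 9 receptor and kinase genes 1 rose, 0 fell and 8 did not pass. Jak2, the kinase of the interferon gamma receptor, read 637 and 550.3 in PlGF, 465, 448 and 449 in arrays labelled PlGF/RGS4 and 459, 426 and 437 in control, and rose by 0.43 ± 0.07 (limma adjusted p = 0.036). Ifnar1, a chain of the type I receptor, had a difference of 0.34 ± 0.08 (limma adjusted p = 0.066), Tyk2, its kinase, one of 0.39 ± 0.11 (limma adjusted p = 0.0969), and Il10rb, a chain of the lambda receptor, one of −0.29 ± 0.10 (limma adjusted p = 0.146).

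The transcription factors of the pathway included 4 that passed. Of 8 measured STAT and IRF genes (of 9 listed), 4 rose, 0 fell and 4 did not pass, with a median of 1.16. Irf7, the factor that amplifies type I interferon, read 1434 and 651 in PlGF, 201, 220.4 and 186 in arrays labelled PlGF/RGS4 and 204, 192 and 220.4 in control, and rose by 2.23 ± 0.28 (limma adjusted p = 0.019). Irf1, which both types of interferon raise, read 2089 and 1051 in PlGF, 297, 329 and 334 in arrays labelled PlGF/RGS4 and 348, 351 and 286 in control, and rose by 2.18 ± 0.26 (limma adjusted p = 0.0172). For both factors the PlGF arrays lay above the rest, and the other groups overlapped.

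Irf8, a factor of macrophages and dendritic cells, rose by 2.05 ± 0.30 (limma adjusted p = 0.0249). Irf9, the DNA-binding part of the complex on the ISRE, read 782 and 559.6 in PlGF, 376, 411 and 367 in arrays labelled PlGF/RGS4 and 412, 417 and 408 in control. It rose by 0.68 ± 0.13 (limma adjusted p = 0.0443).

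Of the 11 sensors of viral RNA and DNA and their adaptors, 4 rose, 0 fell and 7 did not pass, with a median of 1.19. Sting1, the adaptor of the DNA sensor cGAS, read 1078 and 624 in PlGF, 279, 345 and 309 in arrays labelled PlGF/RGS4 and 264, 312 and 256 in control, and rose by 1.57 ± 0.22 (limma adjusted p = 0.0226). Zbp1, a sensor of left-handed nucleic acid, read 925 and 273 in PlGF, 95.2, 118 and 101 in arrays labelled PlGF/RGS4 and 104, 104 and 84.6 in control, and rose by 2.36 ± 0.43 (limma adjusted p = 0.0425). The RNA sensors Dhx58 (1.46 ± 0.26, limma adjusted p = 0.0418) and Ifih1 (1.34 ± 0.25, limma adjusted p = 0.0451) rose as well.

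Among 34 other measured antiviral effectors (of 35 listed) 13 rose, 0 fell and 21 did not pass, with a median of 0.98. At an unadjusted p under 0.05 by limma 32 of the 34 were higher, against 10.9% of all genes. Samhd1, which empties the nucleotide pool that viruses need, rose by 1.53 ± 0.19 (limma adjusted p = 0.0178), and Phf11d by 1.38 ± 0.20 (limma adjusted p = 0.023). Parp14 rose by 1.78 ± 0.27 (limma adjusted p = 0.0263) and Dtx3l, the partner of Parp9 in DNA repair and interferon signalling, by 1.70 ± 0.27 (limma adjusted p = 0.0288).

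Of the 8 measured genes of the list named interferon gamma class genes (of 10 listed) 7 rose, 0 fell and 1 did not pass. Their log2 fold changes ran from 1.49 to 3.84, with a median of 2.68. Which interferon acts on these genes here was not tested. The 9 antiviral genes overlapped with that range, and their median was 1.51; the difference was not tested. Cxcl9, a chemokine for T cells, read 4752.5 and 3136 in PlGF, 314, 173 and 312 in arrays labelled PlGF/RGS4 and 284, 297 and 228 in control (3.84 ± 0.29, limma adjusted p = 0.00398). Iigp1 (2.97 ± 0.23, limma adjusted p = 0.00418), Irgm1 (3.26 ± 0.36, limma adjusted p = 0.0144) and Gbp4 (2.71 ± 0.33, limma adjusted p = 0.0178), GTPases that act on vacuoles of parasites and bacteria, rose with it.

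**Figure D4:**
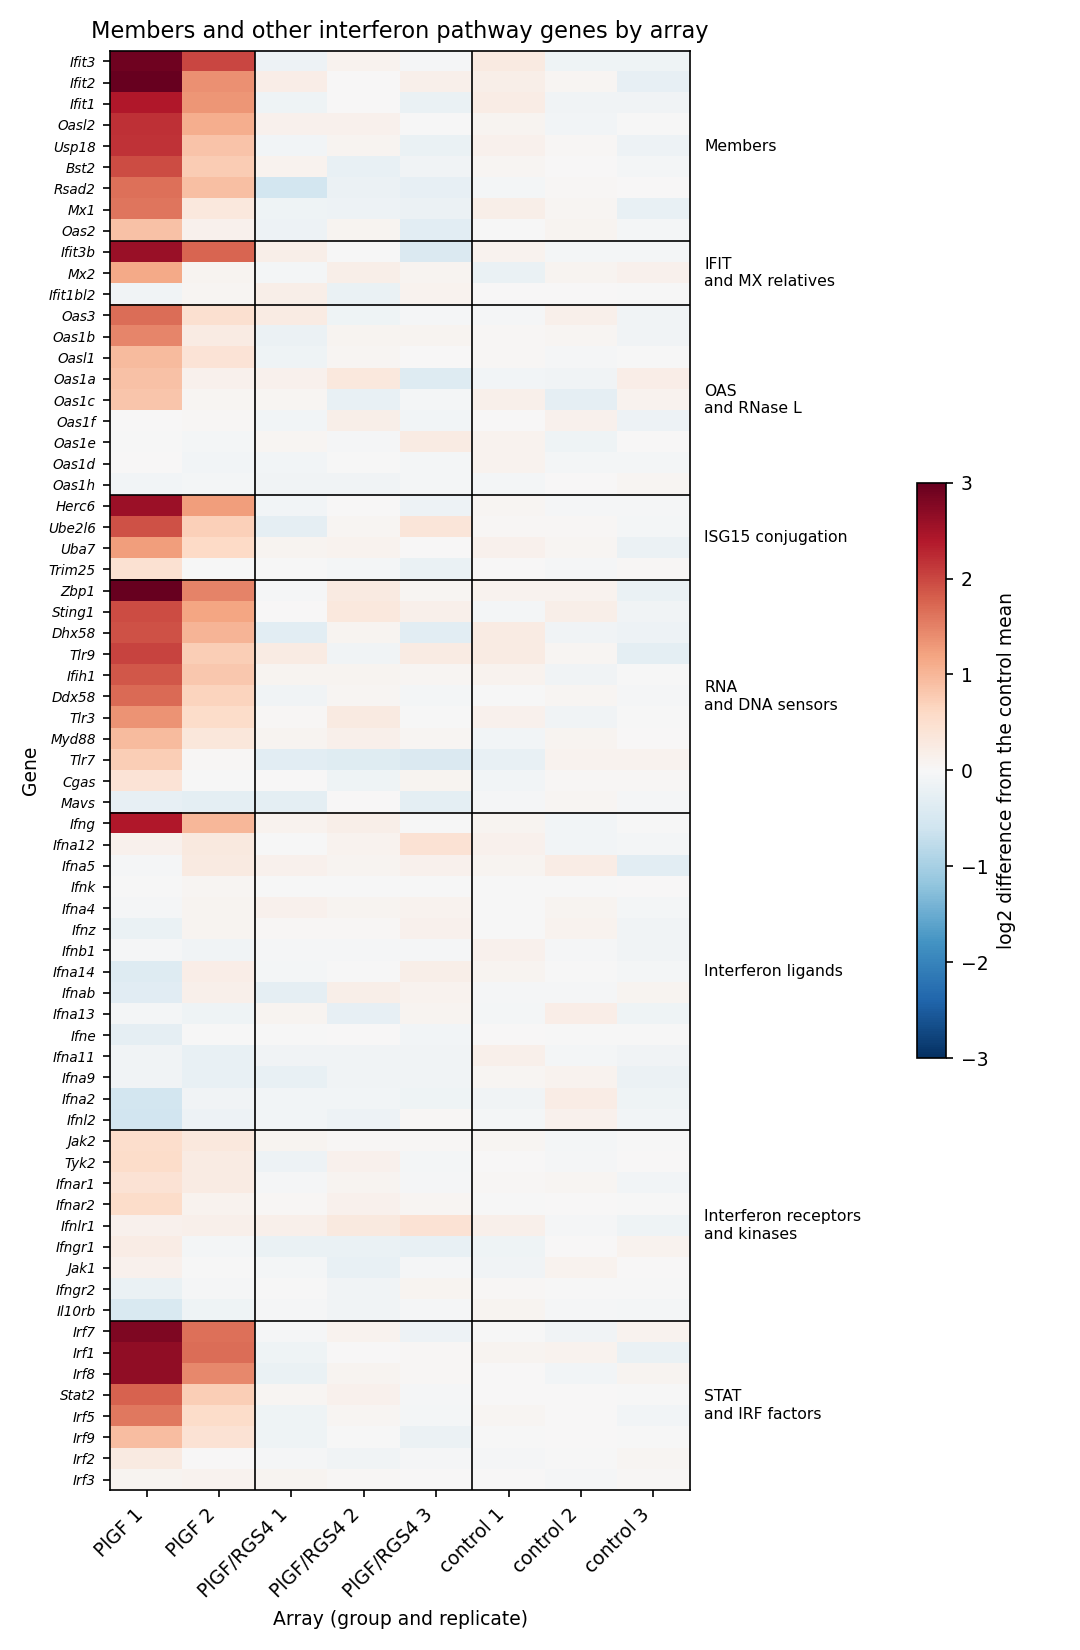
Difference of each array from the mean of the 3 control arrays, on the scale of log2 of the intensity plus 1, for the 9 antiviral genes (Members) and 7 of the 9 pathway lists. The colours end at −3 and 3; PlGF replicate 1 is the strongest column, PlGF replicate 2 comes next, and most interferon ligand rows stay near 0 in all 8 arrays.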

How the data were processed

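The deposited values are linear intensity, which the authors obtained with MAS 5.0 and global scaling per their methods; the scaling target and a genome build are not given in the sources used here. Values ran from 7.1 to 21704, 1 per probe set and array. Of 28440 probe sets, 16383 (57.6%) held the same value in 2 or more arrays, and so did 835 of 3302 (25.3%) with a mean above 1000, and how this arose was not tested. All 8 columns were used (0 left out). The 21780 probe sets with 1 symbol were kept, 1618 with several and 5042 without a symbol were left out, and the brightest of a gene was taken, which left 19933 genes. Groups were compared on log2 of the intensity plus 1 with limma 3.58.1 (lmFit and eBayes) in R 4.3.3, 1 mean per group, and Benjamini-Hochberg adjustment. The code was tested on simulated data. All 10 members were named, with up to 4 genes per pathway list and 3 for leukocyte, plasmacytoid dendritic and endothelial markers by smallest p in PlGF versus control. A few genes, such as Cd79a, S100a8 and Lyz2, were named outside this rule. Members and lists were chosen with earlier results of these data known. Alternatives changed the scaling (quantile normalization, or centring of each array), the features (a filter at the median level, or every probe set), the variance model (a robust prior with a trend, or one-way ANOVA), the arrays (a pair of groups alone, or leaving out each array), the test (the methods' t-test, or a block on replicate number) and the pseudocount (16). The number of arrays limits the precision. Promoter letters came from RefSeq, which is not the source of the probe sets.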

Additional observations from a re-analysis of the deposited data

Results flagged for a closer look

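The effects of the 2 transgenic groups against control differed by the limma test of PlGF versus PlGF/RGS4 for 4 genes. The difference on the log2 scale was 2.498 for Ifit3 (limma adjusted p = 0.01276), 1.971 for Ifit1 (0.02659), 1.587 for Rsad2 (0.0235) and 1.555 for Oasl2 (0.0482). Without PlGF replicate 1 or PlGF replicate 2 there were 7 and 9 such genes of 9, without control replicate 1 there was 1, and without any 1 of the other 5 arrays there were 0 (8 or 9 genes at an unadjusted p under 0.05). Of all 19933 genes these settings called 262 and 2594, then 26, and 11 to 25 higher. The third group goes by its label only, since neither Pgf (300.0, 229 and 211) nor Rgs4 (234, 187 and 229) stood above control there. The probe set shared by Isg15 and Gm9706, which entered no comparison of the 9 genes, had a mean intensity of 69.4 in PlGF, above all controls. Groups of 2 and 3 arrays are too small for a test of single outlying samples.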

How the results depend on the processing

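Over all alternatives, 340 of 340 values of the 9 genes in PlGF versus control and PlGF versus PlGF/RGS4 were above 0. Every PlGF array lay above every array of the other groups, so leaving out an array could not turn a sign. Settings that changed only the spread or the genes entered kept the same fitted difference. In PlGF versus control, 116 kept their side of the threshold, 6 passed newly and 48 no longer passed, and in PlGF versus PlGF/RGS4 these numbers were 121, 8 and 41. In PlGF/RGS4 versus control 170 of 170 stayed short of it. The count of called genes, 5 in PlGF versus control and 4 in PlGF versus PlGF/RGS4, fell to 0 and 0 with the one-way ANOVA spread (7 and 9 genes at an unadjusted p under 0.05), with the 2 groups alone (7 and 8) and with the methods' t-test (5 and 5); these alternatives estimate the spread from fewer arrays or from each gene alone. The same settings gave 0 in place of 32 genes of the pathway lists, and log2 of the intensity plus 16 gave 21. As given above, the one-way ANOVA spread, the 2 groups alone and the methods' t-test also called few of all genes in PlGF versus control.

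A replicate block in the fit gave counts that were 0 in PlGF versus control, 0 in PlGF versus PlGF/RGS4 (8 and 9 genes at an unadjusted p under 0.05) and 2 for the pathway lists. The calls over all genes in this fit are not given here, so the counts are not read as particular to these genes. Samples of one number had correlations of −0.22 to 0.30 in their deviations from the group means, and samples of different numbers −0.24 to 0.22. The 2 PlGF arrays deviate as mirror images, so these values cannot decide whether samples of one number share more than that.

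Leaving out single arrays, the counts ran from 0 to 9 in both comparisons and from 2 to 71 for the pathway lists. The median log2 fold change of the 9 genes ran from 0.89 (without PlGF replicate 1) to 2.17 (without PlGF replicate 2) in PlGF versus control, from 1.01 to 2.10 in PlGF versus PlGF/RGS4 and from −0.14 to 0.00 in PlGF/RGS4 versus control. The limma adjusted p of Ifit3 in PlGF versus control ran from 0.000182 to 0.084 (without control replicate 3). Under the other settings the medians ran from 1.43 to 1.58, 1.52 to 1.58 and −0.08 to −0.06. Mx1 has no value among genes above the median level. Adding the shared probe set of Isg15, an alternative chosen after seeing the data, left 5, 4 and 0 calls. The number of arrays, 2 in PlGF, is the main limit.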
